A study of Canis lupus familiaris with 2 samples.

Results

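Long stretches of the MDCK genome had low DNA methylation and others had high methylation, and the regions described here are the 689 places on the dog autosomes where a single window of 100 kb separated the low from the high. They were chosen by level: the autosomes were divided into fixed windows of 100 kb with at least 50 covered CpG sites, and a border is a window at 50 to 70% that has a window under 50% directly on its low side and a window of 70% or more directly on its high side. The level used for the choice was the mean of the libraries, each from its summed calls. Borders made up 3.13% of 22036 windows on chromosomes 1 to 38, beside 7802 windows under 50%, 8368 of 70% or more and 5177 other windows at 50 to 70%.

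MDCK is an established epithelial line from dog kidney. The control culture was untreated and the other was given TGF-beta at 5 ng/ml, and both were kept for 30 days. The labels call the first epithelial and the second mesenchymal, and TGF-beta is a secreted signal protein that can turn epithelial cells mesenchymal, with looser contacts and more movement. Whole-genome bisulfite sequencing reads an unmethylated cytosine as a converted base, so each read over a CpG gives a methylated or an unmethylated call. Each group has 1 library, so differences between them were not checked against replicates, and no p-value across borders is given. Positions are in canFam3.

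In many cultured cells, much of the genome lies in partially methylated domains, long blocks that are poor in genes and replicate late. Maintenance methylation after replication is incomplete there, most of all at CpGs with no other CpG close by. The blocks between them stay highly methylated, except at CpG islands, which are short CpG-dense stretches, often at promoters, that are typically free of methylation. Borders between such blocks are the places where a change in the extent of a domain would show.

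A border window held between 140 and 3119 covered sites, with a median of 773. The control had a median of 21554 calls per border window, and the TGF-beta library 30131. No border window had fewer than 3386 calls in the control or 4362 in the TGF-beta library. Over all autosomes, the median covered site had 23 control calls and 38 calls with TGF-beta. The 95% intervals below are exact binomial ones, which cover only counting error.

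The levels in this paragraph chose the borders and are given as a description. Border windows had a median of 58.9% in the control (lowest 43.6%, highest 76.6%) and 59.5% in the TGF-beta library (45.6% to 74.8%). Their low neighbours had medians of 41.9% and 44.5%, and their high neighbours 79.2% and 78.3%. By the mean of the libraries, the members spanned the whole range, the lowest at 50.01%. The nearest windows that lay between a low and a high window and were left out were at 49.98% and 70.01%. The lowest intermediate window that stood in the place of a low neighbour was at 50.02%, and the highest that stood in the place of a high neighbour was at 69.97%.

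A single intermediate window was the most frequent way in which low and high windows met. Of 1689 such transitions, 689 (40.8%) had 1 intermediate window, 436 (25.8%) had none, 297 (17.6%) had 2, 130 (7.70%) had 3 and 137 (8.11%) had 4 or more. The low side was on the left in 326 borders and on the right in 363. Chromosomes differed in how many they held: chromosome 29 had 28 borders, or 6.68 per 100 windows, and chromosome 9 had 5, or 0.818 per 100, with a median over chromosomes of 2.94. On chromosome 9, 10.97% of windows were under 50%, whereas on chromosome 29 47.7% were. The number of borders did not follow this share on every chromosome: chromosome 22 had 53.8% and 1.79 borders per 100 windows.

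Most borders opened onto more than a single low or high window. Counted outward from the border, the run of adjacent windows under 50% had a median of 3 windows (quartiles 2 and 8) and reached 66, and 135 borders faced a run of at least 10. The run of windows of 70% or more was shorter, with a median of 2 (quartiles 1 and 4), a maximum of 28 and 41 borders facing at least 10. For 167 borders (24.2%) the low run was only 1 window long, and for 245 (35.6%) the high run was. Another border closed the low run of 182 borders and the high run of 138. Runs were counted per border, so a run between borders is counted from each end.

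Applied to each library alone, the same rule found 751 borders by the control's levels and 621 by those with TGF-beta. They shared 422 windows, which is 56.2% of the control's and 68.0% of the TGF-beta library's. Of the 689 members, 579 met the rule in the control alone, 513 in the TGF-beta library alone, 422 in both and 19 in neither.

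Averaged over borders, the level rose gradually through the window. Sites outside CpG-dense windows (1 kb with at least 40 listed CpG sites) were summed in bins of 5 kb, and medians were taken over borders for stretches of 20 kb. In the control the median was 38.01% at 80 to 100 kb outside the low edge of the border window and 41.3% in the last 20 kb before it. It was 44.7%, 49.3%, 54.1%, 62.5% and 73.3% in the 5 stretches of the border window itself, and 80.3% in the first stretch beyond. In the TGF-beta library the same 5 stretches were at 46.3%, 51.6%, 56.1%, 64.5% and 74.2%. Far from the border the medians moved back towards each other, to 43.7% at 480 to 500 kb on the low side and 67.2% at the end of the 500 kb on the high side in the control.

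**Figure D1:**
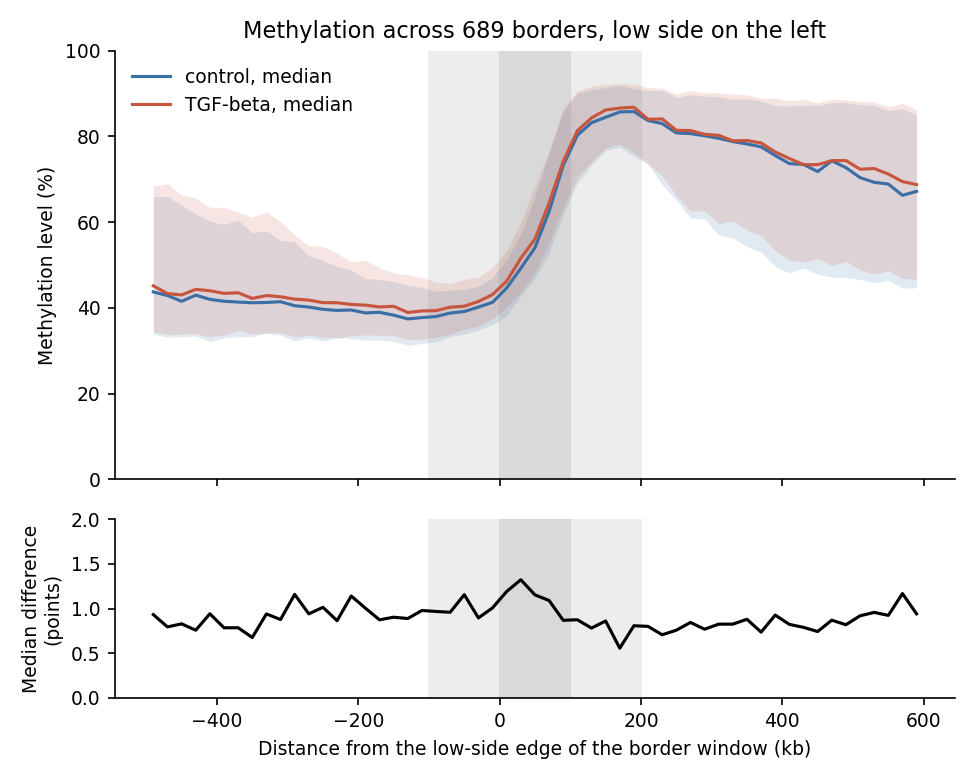
Upper panel: methylation level (%) against distance from the low-side edge of the border window (kb), as the median over borders (lines) and the quartiles (bands) in the control and the TGF-beta library; the dark band marks the border window and the light bands its neighbours, whose levels chose the borders. Lower panel: median difference, TGF-beta minus control, in percentage points. In the control the median climbs from 44.7% to 73.3% inside the border window, and the difference stays between 0.556 and 1.32 points over the whole span.

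Where the low domain was long, its level was flat until close to the border. In the 291 borders with at least 5 adjacent low windows, the control's median was 34.4% at 480 to 500 kb, 34.2% at 180 to 200 kb and 34.7% at 80 to 100 kb outside the border window, and then 36.1%, 37.5%, 38.6% and 40.1% in the last 4 stretches before it. On the other side, the 172 borders with at least 5 adjacent high windows reached 87.2% at 80 to 100 kb beyond the border window and stood at 86.0% in the last stretch. These runs were themselves chosen by level, and medians over borders with different centres do not give the slope of a single border.

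Individual borders differed widely in how steep they were. A ramp, which is a low level, a straight rise and a high level, was fitted to the bins of each border and its neighbours over 300 kb. This was done separately in each library, with the width of the rise chosen from a fixed list of values up to 200 kb. The ramp could be fitted to 676 borders, and 666 had an R2, the share of variance explained, of at least 0.3 in both libraries. The fit used the windows whose levels chose the borders. The rise, the R2 and the place of the centre were thus in part set by the rule. The median rise was 45.3 points in the control and 44.6 points with TGF-beta. The median width was 60 kb in each library (quartiles 20 and 100 kb). These are values of the list, so equal medians do not show equal widths, and 330 of the 666 borders had the same width in both. In 540 of the 666 borders the centre lay inside the border window in both libraries. The rise took 20 kb or less in 178 of the control's borders (26.7%) and 182 (27.3%) of those of the TGF-beta library, and 124 were this narrow in both. It took 150 to 200 kb, the widest allowed, in 144 and 158.

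Among the 124 narrow rises, the 3 with the highest mean R2, picked after their values were seen, had the same centre in both libraries. On chromosome 22 the border window from 30500001 to 30600000 went from a fitted low of 38.7% to a high of 90.9% in the control and from 41.2% to 92.1% in the TGF-beta library, with both centres at 30515001. It held 3 unmethylated CpG-dense windows, the window on chromosome 7 described next held 0, and the one on chromosome 5 held 1. On chromosome 7 the window from 34200001 to 34300000 went from 31.8% to 91.9% and from 29.8% to 92.7%, centred at 34255001. On chromosome 5 the window from 73200001 to 73300000, with its low side on the right, went from 36.3% to 90.4% and from 34.3% to 90.8%, centred at 73245001. In these borders the low and high levels met within a distance of 10 to 20 kb.

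Unmethylated CpG-dense windows began at the rise. Such windows, which stand in for CpG islands, have at least 40 listed sites per kb and a mean level of the libraries under 20%. CpG-dense windows were left out of the ramp fit, so their own calls did not place the centre within a border. Their calls were part of the 100 kb levels that chose the borders, so the counts inside border windows are in part set by the rule. In the 100 kb on the low side of the centre there were 47 of them over 666 borders, or 0.706 per Mb, and in the 100 kb on the high side 618, or 9.28 per Mb. In steps of 25 kb towards the centre their density was 0.0601, 0.420, 0.360 and 1.98 per Mb on the low side. It was 11.1, 9.43, 9.01 and 7.63 per Mb going outward on the high side. For comparison, the density was 0.570 per Mb over all windows under 50%, 8.03 over all windows of 70% or more, 10.2 over the other windows at 50 to 70% and 5.84 over all autosomal windows. The 9.28 per Mb of the whole high side thus lay between the values of windows of 70% or more and of other windows at 50 to 70%.

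CpG-dense sequence as such changed less across the centre. All CpG-dense windows numbered 21.6 per Mb in the last 25 kb of the low side and 33.3 in the first 25 kb of the high side, and listed CpG sites numbered 9.61 and 11.2 per kb. Of the CpG-dense windows, 9.19% were unmethylated in the last 25 kb of the low side and 33.2% in the first 25 kb of the high side. At least 1 unmethylated CpG-dense window lay in the first 25 kb of the high side in 129 of 666 borders (19.4%), against 25 (3.75%) in the last 25 kb of the low side. The rise was thus not accompanied by such a window within 25 kb on its high side in most borders.

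**Figure D2:**
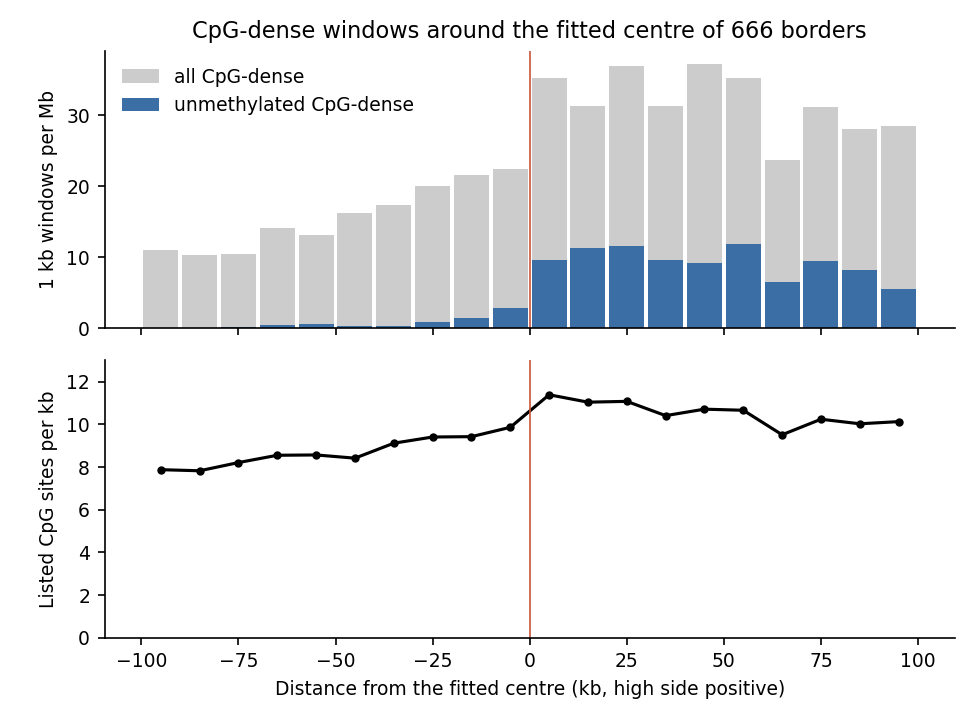
Upper panel: CpG-dense 1 kb windows per Mb (grey, all; blue, unmethylated) in steps of 10 kb against distance from the fitted centre (kb, high side positive), over 666 borders. Lower panel: listed CpG sites per kb. Unmethylated windows go from 2.85 per Mb in the last 10 kb of the low side to 9.61 in the first 10 kb of the high side, while listed sites go from 9.86 to 11.4 per kb.

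The same step was present in each library and in other fits, which were added after the data were examined. With the centre and levels of the control alone the density was 1.98 per Mb in the last 25 kb of the low side and 12.3 in the first 25 kb of the high side, and with those of the TGF-beta library alone 2.16 and 10.4. In the 124 borders with a rise of 20 kb or less in both libraries it was 3.55 and 15.2. With all sites within 2 kb of a CpG-dense window left out of the fit, so that the flanks of islands did not place the centre either, it was 1.30 and 10.9 over 648 borders. Border windows themselves held 422 unmethylated CpG-dense windows by the mean of the libraries, 426 by the control and 417 by the TGF-beta library. At least 1 lay in 211 border windows (30.6%), against 4.06% of their low neighbours and 37.7% of their high neighbours. The share was 36.3% in the other windows at 50 to 70% and 26.2% over all autosomal windows.

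In listed CpG sites borders were level with their high side: they had a median of 8.79 listed sites per kb, against 6.94 in their low neighbours and 8.76 in their high neighbours. Other windows at 50 to 70% had 10.8 per kb, windows of 70% or more 10.5, windows under 50% 5.86 and all autosomal windows 8.36. CpG-dense windows were fewer in borders than on the high side, at 26.3 per Mb against 33.0 in the high neighbours and 9.64 in the low neighbours.

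The rise across a border was largest at isolated CpGs. Outside CpG-dense windows, sites with no other listed CpG within 35 bp had a mean level of 29.3% in the low neighbours, 48.4% in the border windows and 77.0% in the high neighbours of the control. Sites with at least 3 other CpGs within 35 bp were at 69.0%, 75.8% and 85.1%. Sites with 1 or 2 other CpGs lay between these, at 60.3% and 67.9% in the border windows. In the TGF-beta library isolated sites were at 29.7%, 49.2% and 77.7%, and those with at least 3 others at 69.0%, 76.0% and 85.4%. The order of the classes was the same in each library and each kind of window.

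The intermediate level of a border came from a mixture of sites. Of sites with 10 or more calls in each library, 22.5% were under 20% in the control's border windows, 34.95% were between 20% and 80% and 42.6% were at 80% or more. In the low neighbours these shares were 36.1%, 40.4% and 23.5%, and in the high neighbours 9.86%, 18.9% and 71.3%. The TGF-beta library had 22.6%, 33.4% and 44.0% in the border windows. It is deeper, which affects such shares. At the scale of 1 kb, 5.53% of the windows inside borders were under 20%, 28.9% at 20 to 50%, 30.5% at 50 to 70% and 35.1% at 70% or more.

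Borders as a whole were close in level in the 2 libraries. The sign of the small difference depended on weighting in the low neighbours, and within classes of sites also in the borders. The difference between libraries was not used to choose the borders. The border windows had a median difference of 0.865 points, TGF-beta minus control (quartiles -1.76 and 3.56, lowest -19.7, highest 26.4), and 72.1% lay within 5 points of 0. Over all autosomal windows the median was 0.682 points (quartiles -1.27 and 2.71), and 80.6% lay within 5 points. In the other windows at 50 to 70% the median was 0.664 and 67.9% lay within 5 points. With each site weighted equally the median was 0.443 points in borders and 0.268 over all windows. With the calls of each site drawn down to the smaller of the libraries' counts it was 0.466 points in borders. Classed by other CpGs within 35 bp, border windows had a lower summed level in the TGF-beta library in every class. It was 49.16% against 49.96% for isolated sites and 76.3% against 76.6% with 3 or more others. Mean site levels of border windows were higher in every class, by 0.753 points for isolated sites and 0.244 points with 3 or more others.

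On the low side the weighting changed the sign. The low neighbours had a median difference of 1.85 points by summed calls and -0.225 by the mean of site levels, whereas the high neighbours had 0.0258 and 0.709. The libraries spread their calls differently over the sites of low neighbours, border windows and high neighbours alike. In the low neighbours, isolated sites took 48.1% of the control's calls and 40.2% of the TGF-beta library's. Sites with at least 3 other CpGs within 35 bp took 10.4% and 15.1% there. Isolated sites took 42.4% and 34.3% in border windows and 41.0% and 32.2% in high neighbours. Sites with at least 3 others took 14.3% and 20.0% in border windows and 15.3% and 21.8% in high neighbours. Whether this spread gave the change of sign was not tested. Within each class of sites, the summed level of the low neighbours was lower in the TGF-beta library, but their mean site level was not lower in every class. Summed levels were 29.68% against 29.73% for isolated sites, 44.8% against 46.0% with 1 other CpG, 56.4% against 57.9% with 2 and 69.0% against 69.8% with 3 or more. Mean site levels differed by 0.451, -0.140, -0.344 and 0.0656 points in the same order.

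More border windows were higher than lower by 10 points or more in the TGF-beta library, although limits of 45% and 75% in place of 50% and 70% gave 9 higher and 9 lower among 388 borders. There were 30 higher (4.35%), beside 2.39% of all autosomal windows, and 16 lower (2.32%), beside 1.48%. Other windows at 50 to 70% passed this size more often than borders, with 5.43% higher and 3.75% lower. By the mean of site levels 12 borders were higher (1.74%, beside 1.3% of all windows) and 5 lower (0.726%, beside 0.567%), and with equal calls per site 11 and 7. On each strand separately, 22 of the 30 and 11 of the 16 kept 10 points in the same direction. The strands of the control differed from each other by 10 points or more in 9 of the 689 border windows, and the strands of the treated culture did so in 28. Over all 22036 autosomal windows these counts were 187 and 600, and over the 5177 other windows at 50 to 70% they were 70 and 204.

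The losses depended on the weighting more than the gains. Of the 30 higher borders 29 kept their sign by the mean of site levels and 10 kept 10 points, with a median of 9.06 points. Of the 16 lower borders 9 kept their sign and 4 kept 10 points, with a median of -0.191. Among the higher borders 5 had a low neighbour and 8 a high neighbour that was also higher by 10 points, 1 had both and 18 had neither. Among the lower ones 3 had such a high neighbour and 13 had neither. The neighbours of the higher borders moved in the same direction by less, with medians of 5.94 points on the low side and 5.37 on the high side, against 11.4 in the border window. Those of the lower borders had medians of 1.46 and -2.46 points, against -11.7.

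**Figure D3:**
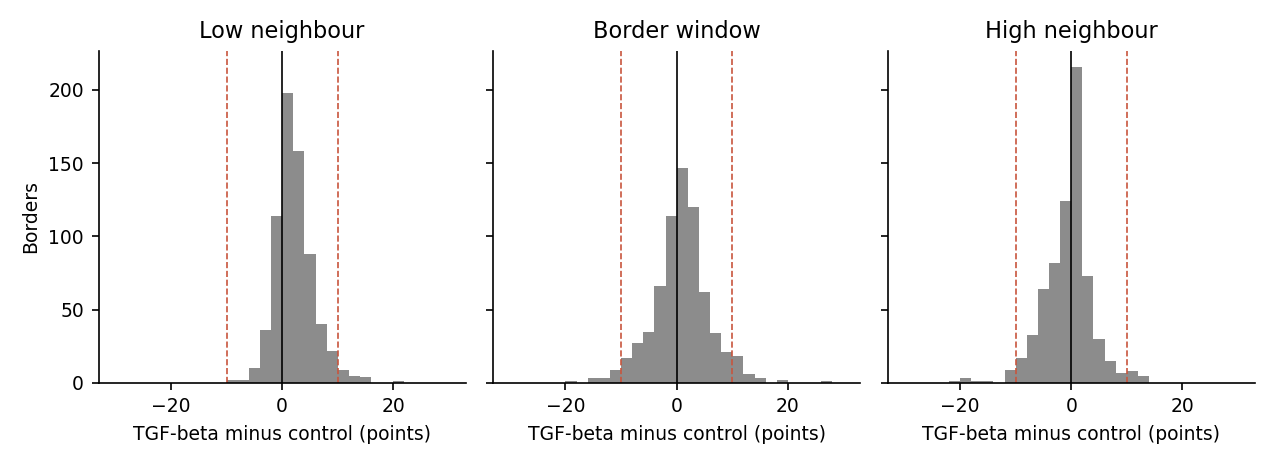
Number of borders by difference in level, TGF-beta minus control in percentage points by summed calls, for the low neighbour, the border window and the high neighbour of each of 689 borders; dashed lines mark 10 points. The border windows have 30 values at or above 10 and 16 at or below -10, the low neighbours 19 and 0, and the high neighbours 13 and 15. A neighbour shared between borders is counted for each of them.

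The largest gain was on chromosome 31 from 20900001 to 21000000. Its level was 43.6% (42.8 to 44.4, 14787 calls) in the control and 69.99% (69.3 to 70.7, 18211 calls) in the TGF-beta library. It differed by 26.4 points by summed calls, or 22.4 by the mean of site levels. Its low neighbour went from 36.2% to 56.6% and its high neighbour from 68.9% to 75.5%. In stretches of 20 kb the libraries were close at the outer ends, with 36.1% and 37.5% at the far end of the low neighbour and 91.8% and 92.3% at the far end of the high neighbour. Between them the TGF-beta library was already at 71.0% in the stretch from 40 to 20 kb before the border window, where the control was at 41.6%. Fisher's exact test called 28 windows of 1 kb inside it, the most of any border.

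The next largest gains were on chromosome 3 from 55600001, at 48.2% and 67.3%, on chromosome 13 from 20800001, at 54.7% and 73.7%, on chromosome 8 from 33400001, at 57.8% and 73.6%, and on chromosome 12 from 25400001, at 47.0% and 62.6%. By the mean of site levels these 4 differed by 16.7, 16.7, 13.8 and 12.96 points. On chromosomes 3 and 8 the high neighbour differed by 0.169 and -0.0755 points, while the low neighbour differed by 15.3 and 4.88.

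The largest loss was on chromosome 13 from 18400001 to 18500000. Its level was 73.4% (72.8 to 74.0, 20567 calls) in the control and 53.7% (53.1 to 54.4, 24871 calls) in the TGF-beta library. It differed by -19.7 points by summed calls, or -18.3 by the mean of site levels. Its low neighbour was at 46.2% and 46.7%, and its high neighbour at 80.0% and 61.5%, so the lower level continued into the high side. Named losses needed the same sign by both measures, and some larger ones by summed calls failed this. The window on chromosome 8 from 17500001 differed by -14.9 points by summed calls and 1.61 by the mean of site levels. The next named losses were on chromosome 1 from 39100001, at 74.5% and 62.4%, and on chromosome 20 from 27600001, at 66.2% and 54.5%. After them came chromosome 8 from 17100001, at 67.9% and 56.7%, and chromosome 5 from 51100001, at 72.0% and 61.0%. By the mean of site levels these other named losses differed by -11.3, -9.12, -11.5 and -0.271 points, so the last rested on how calls were spread over sites.

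Most centres moved by 10 kb or less, and those that moved further did so more often towards the low side. The shift is the fitted centre in the TGF-beta library minus that in the control, and centres were placed in steps of 5 kb. The median shift was 0 kb over 666 borders (quartiles -5 and 0), 268 (40.2%) had exactly the same centre, and 78.4% moved by 10 kb or less. The centre lay 20 kb or more further into the low side in 81 borders (12.2%) and 20 kb or more further into the high side in 31 (4.65%). Counting all shifts, 273 were towards the low side and 125 towards the high side.

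Comparing the strands within a library gave shifts of 20 kb or more in similar numbers in each direction. Between the strands of the control, 42 of 639 borders were 20 kb or more apart in each direction. Between those of the TGF-beta library 51 and 60 of 636 were. On the plus strand alone the libraries gave 68 shifts towards the low side and 29 towards the high side, and on the minus strand alone 75 and 33. With each site weighted equally they gave 56 and 26, and with equal calls per site 58 and 23. The imbalance was present where the low side was on the left (34 and 16) and where it was on the right (47 and 15). Of the 81 shifts towards the low side, 51 had the same sign on each strand and 29 kept 20 kb on each, and of the 31 towards the high side 19 and 10 did. Strands of a library share its culture and its preparation and hold fewer calls, so they show technical spread within a library and not the spread between cultures, which was not measured.

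**Figure D4:**
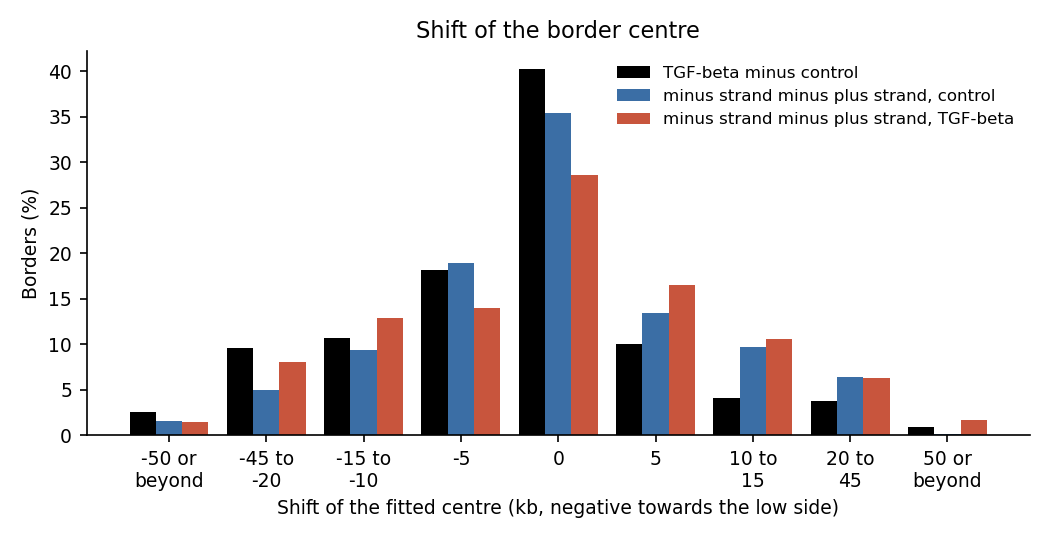
Percentage of borders by shift of the fitted centre (kb, negative towards the low side), for TGF-beta minus control (black, 666 borders) and for the minus strand minus the plus strand within the control (blue, 639) and within the TGF-beta library (red, 636). Black bars are taller on the negative side, where 12.2% of borders moved 20 kb or more, than on the positive side with 4.65%. The control's strands give 6.57% on each side, and the strands of the TGF-beta library 9.43% on the negative and 8.02% on the positive side.

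Borders whose centre moved towards the low side had a higher level in the TGF-beta library, with a median difference of 4.45 points in the border window, 2.56 in the low neighbour and 0.715 in the high neighbour. Those whose centre moved towards the high side had -1.62, 3.42 and 0.562. A shift is read from the same calls as these levels, so the values describe one change in 2 ways.

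The largest shift towards the low side that met the limits for naming was on chromosome 21, in the border window from 400001 to 500000, where the centre moved by -85 kb. The border of the largest gain, on chromosome 31, had a fitted shift of -170 kb but an R2 of 0.413 in the TGF-beta library, under the limit. Its centre in that library was at -50 kb from the low edge, the lower end of the range searched, so the search limited this shift. On chromosome 21, the control's 20 kb stretches stayed between 40.5% and 51.1% from 40 to 140 kb past the low edge and then reached 80.9%. In the TGF-beta library the same stretches were between 66.7% and 70.1%, and the next was at 77.9%. The others were on chromosome 5 from 22800001 (-65 kb), chromosome 1 from 36600001 (-60 kb), chromosome 4 from 62600001 (-60 kb) and chromosome 12 from 46600001 (-60 kb). By strand, plus then minus, their shifts were -55 and -65, -65 and -40, -5 and -40, and -50 and -65 kb. Their border windows differed by 9.79, 11.7, 7.52 and 7.25 points by summed calls, and the one on chromosome 21 by 12.2. By the mean of site levels the window on chromosome 4 differed by -0.476 points and that on chromosome 21 by 5.26.

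Under the same limits, the largest shift towards the high side was on chromosome 20, in the window from 1500001 to 1600000, where the centre moved by 65 kb, although the levels of the libraries were close, at 63.0% and 60.4%. The level rose there in separate steps: in the control it was 43.7% in the 20 kb before the border window and 61.3% in the first 20 kb of it. It rose again from 57.0% at 120 to 140 kb past the low edge to 91.0% at 160 to 180 kb. A single ramp can place its centre at either step, and the fitted widths were 200 kb in the control and 40 kb in the TGF-beta library. The TGF-beta centre lay at 150 kb past the low edge, the upper end of the range searched, so the search limited this shift. The others were on chromosome 1 from 51600001 (55 kb, at 66.2% and 57.0%) and chromosome 4 from 52300001 (45 kb) and from 27300001 (30 kb). The last was on chromosome 13 from 7400001 (30 kb, at 72.5% and 66.0%). By strand, plus then minus, the shifts of these others were 5 and 65, 35 and 30, 30 and 10, and 35 and 30 kb.

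**Figure D5:**
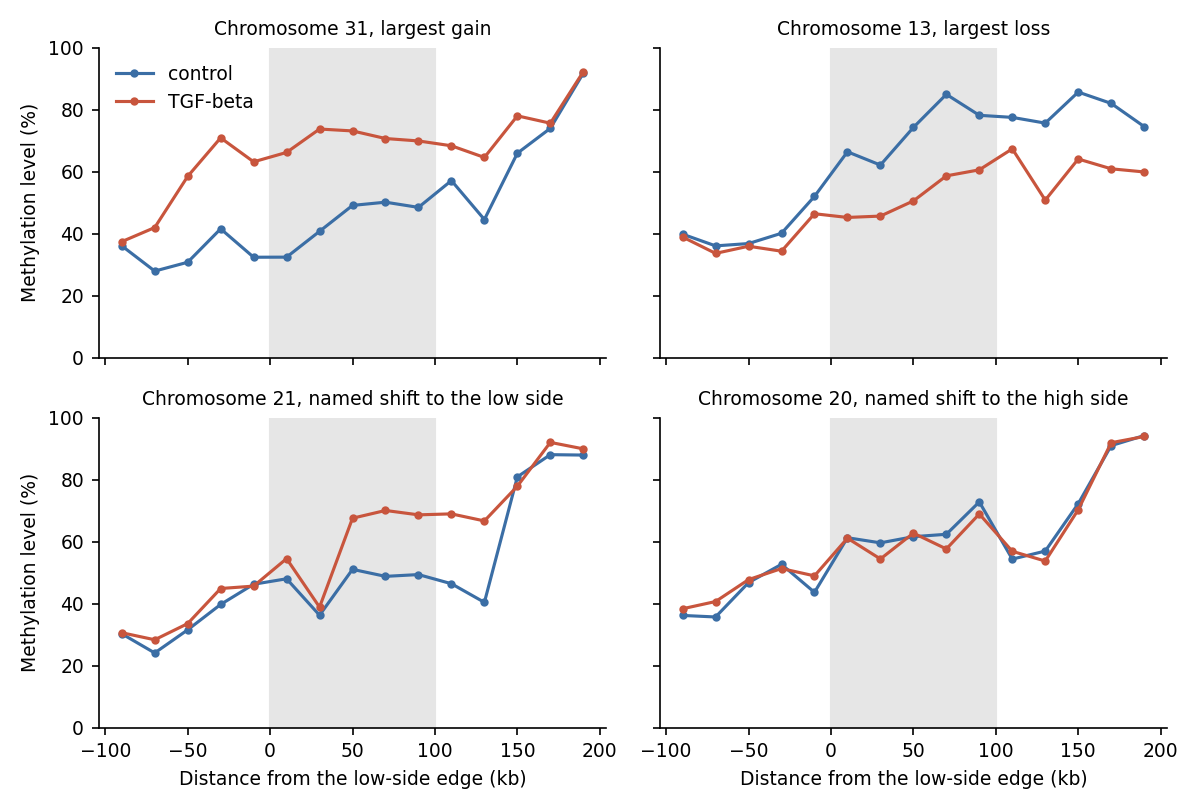
Methylation level (%) in stretches of 20 kb against distance from the low-side edge of the border window (kb; grey band, the border window) in the control (blue) and the TGF-beta library (red), for the borders with the largest gain and the largest loss and those with the largest shift in each direction among the borders that met the limits for naming shifts. On chromosome 21 the libraries separate from 40 to 140 kb and meet again beyond. On chromosome 20 the lines stay close although the fitted centres differ by 65 kb, with the TGF-beta centre at the limit of the search.

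At the scale of 1 kb, the share of windows called higher inside borders was above that of windows at large by summed calls. Summed calls were compared by Fisher's exact test, two-sided, with Benjamini-Hochberg adjustment over 1374041 autosomal windows that had at least 5 covered sites. The test called a window at an adjusted p under 0.05 and a difference of at least 20 points. It compares these libraries, not the conditions. Of 43462 windows inside borders 1255 (2.89%) were called higher, beside 2.26% of all windows, and 696 (1.60%) lower, beside 1.43%. Other windows at 50 to 70% had 3.04% and 1.55%. With a further limit of 20 points by equally weighted sites, borders were close to the background: 436 (1.003%) were higher, beside 0.892% of all windows, and 200 (0.460%) lower, beside 0.447%. Other windows at 50 to 70% had 1.42% and 0.512%. The share called higher went from 3.38% in the first 25 kb of the border window to 2.20% in the last, and was 3.20% in the 50 kb before it and 1.72% in the 50 kb beyond. Over the autosomes this share also differed by level, at 2.80% inside windows under 50% and 1.43% inside windows of 70% or more. Whether position in the border added to that was not tested. The share called lower was between 1.15% and 1.83% across the border window and its neighbours. At least 1 called window lay in 597 of the 689 borders (86.6%), beside 78.0% of all 100 kb windows, 81.3% of the other windows at 50 to 70% and 86.3% of windows under 50%.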

How the data were processed

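The deposited values are counts: per listed CpG cytosine, the authors' files give methylated and unmethylated calls, strands on separate lines, without a header. The submitters' processing notes name Bismark, Bowtie 0.12.8 and canFam3, whereas the labels' extraction protocol names SOAPaligner2. Duplicate removal and filters are not stated in those sources, and kept duplicates would make intervals too narrow. In each file 1 line names no chromosome (12 and 6 calls) and was left out. The libraries held 656122583 calls (control) and 1019766599 calls (TGF-beta).

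Adjacent cytosines were joined into 23477970 autosomal CpG sites, of which 91.1% list both strands. Runs of cytosines with no clear pairing, 0.00688% of autosomal calls, were dropped. Sites needed 5 calls in both libraries, which 89.8% had. A level is methylated calls over all calls. Strand comparisons used sites with both strands listed.

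Ramps were fitted by least squares to bins of 5 kb with at least 10 sites, where 80% of bins had a value. Centres were searched from -50 to 150 kb past the low edge in steps of 5 kb, and widths were taken from a fixed list of values up to 200 kb. Named borders of gain and loss are the 5 largest in each direction with 10 points by summed calls, 5 points on each strand and the same sign by the mean of site levels. Named shifts are the 5 largest in each direction with an R2 of at least 0.5 and a rise of 20 points in both libraries, and the same sign on each strand. The members, lists and tests were chosen with earlier results of these data known. Gene annotation and sequence of canFam3 are not used here. The ramp fit and the exact test were tested on simulated data. Software was matplotlib 3.10.9, pyarrow 21.0.0, numba 0.67.0, pandas 2.3.3, scipy 1.17.1 and numpy 2.4.6 under Python 3.11.15.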

Additional observations from a re-analysis of the deposited data

How the results depend on the processing

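Of 98 alternative values for the borders' number, difference, shift, width and content, 84 stayed close to the reported value. Close means within 1.5 times the reported count, or within the exact 95% order-statistic interval of the reported median over borders. That interval covers the spread over borders and not between cultures. The median shift stayed at 0 kb and the median width at 60 kb in every alternative that gave them. Centres were placed in steps of 5 kb and widths taken from a fixed list, so these medians had little room to move. The median difference kept its sign in every alternative that gave it. With each site weighted equally the median difference was 0.443 points, with 12 borders higher and 5 lower by 10 points. With equal calls per site it was 0.466 points, with 11 and 7, and among borders chosen by site means 7 and 3 of 645 passed. Limits of 45% and 75% gave 388 borders, 9 higher and 9 lower. The TGF-beta level alone gave 10 lower. Requiring 20 points by site means left 436 windows of 1 kb higher and 200 lower. The number of borders was otherwise between 621 and 769. Shifts of 20 kb or more numbered between 56 and 82 towards the low side and between 23 and 36 towards the high side in every fit run. No paired analysis was possible because each group has 1 library, and for the same reason no library could be left out.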
